A study of Mus musculus with 2 samples.

Results

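Collagens are the main structural proteins of skin, and each is a trimer of chains encoded by a gene family named by collagen type and chain. All symbols made of Col, a number, the letter a and a number were taken from the 55353 gene symbols of the deposited gene lists, which gave 44 collagen chain genes. They were split by role into 11 fibrillar chains, 10 chains of the basement membrane zone and 23 other chains. The data were single-cell RNA libraries, read from the 3′ end of transcripts, of dorsal skin from 7-week-old C57BL/6 mice. One library came from imiquimod-treated mice, and imiquimod, an agonist of a toll-like receptor put on the skin, causes an inflammation used as a model of psoriasis. The other came from mice given Shi-Bi-Man, which the series title calls a natural product, as well as imiquimod (hereafter the Shi-Bi-Man library). Both groups therefore carried imiquimod, and no untreated skin was analysed here. The series concerns how Shi-Bi-Man acts in the psoriasis model. The sources used here give no dose, treatment length or number of mice for a library.

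Fibrillar collagens of types I, III and V form the cable-like fibrils that give dermis its strength, and dermal fibroblasts make most of them. Type IV chains form the sheet under epidermis and around vessels, type VII anchors that sheet to the dermis, type XVII spans the basal keratinocyte membrane, and types XV and XVIII sit at the border of basement membranes. Type VI forms beaded filaments next to cells, while types XII, XIV and XVI attach to other matrix networks. Chains must be hydroxylated and folded by dedicated enzymes and chaperones before they are secreted, trimmed and cross-linked.

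The type IV genes lie in head-to-head pairs, and the sequence at the shared starts is shown because the paired chains are followed together below. Col4a1 (chr8:11198423-11312826, minus strand) and Col4a2 (chr8:11312805-11449287, plus strand) overlap by 22 bases at their starts in the GENCODE annotation of GRCm38. The 71 bases between the starts of Col4a4 (chr1:82448423-82586849, minus strand) and Col4a3 (chr1:82586921-82722059, plus strand) are given next, and the Col4a6 and Col4a5 starts on chromosome X are 1308 bases apart. Upstream sequences of Col3a1 (chr1:45311538-45349706) and Col16a1 (chr4:130047840-130099283) follow, as a main fibril chain with a small difference and a fibril-linking chain with a large difference between the libraries over all fibroblasts (log2 ratios 0.35 and 1.18). The small Col3a1 ratio joins fibroblast clusters with ratios of opposite sign, given below. All sequences are written on the plus strand, 5′ to 3′, from the RefSeq promoter table and genome sequence of GRCm38.p6, and capitals mark the GC box GGGCGG, the TATA box TATAAA or the CCAAT box.
Col4a1 and Col4a2 start overlap, chr8:11312805-11312826: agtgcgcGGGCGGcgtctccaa
Between the Col4a4 and Col4a3 starts, chr1:82586850-82586920: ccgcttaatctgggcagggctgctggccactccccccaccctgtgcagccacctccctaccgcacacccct
Col3a1 upstream, chr1:45311388-45311537: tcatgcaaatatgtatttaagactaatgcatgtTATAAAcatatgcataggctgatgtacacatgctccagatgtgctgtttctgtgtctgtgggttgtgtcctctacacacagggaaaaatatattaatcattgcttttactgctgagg
Col16a1 upstream, chr4:130047690-130047839: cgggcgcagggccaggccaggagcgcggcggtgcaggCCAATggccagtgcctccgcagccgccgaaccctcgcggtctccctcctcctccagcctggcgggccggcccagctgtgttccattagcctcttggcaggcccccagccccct

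The Col16a1 stretch also overlaps an exon of the gene Gm12963. Of the 44 chains, 35 had an entry in the RefSeq promoter table, with 38 windows. Searched on both strands of the 250 bases before the start, GGGCGG was found in 22 of the 38 windows (57.9%) against 32.7% of 32851 windows of the same length. CCAAT was found in 13 (34.2% against 33.9%) and TATAAA in 5 (13.2% against 12.4%). These matches are descriptions of letters only. Exons of 13 of the 44 genes overlap those of another gene, among them Col4a1 and Col4a2 with each other, Col3a1 with Gm47302 on its own strand and Col15a1 with Gm12426 on the other. Whether counting used strand was not given, so their counts may include a neighbour's reads.

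The imiquimod library held 11316 barcodes and 28920316 counts, and the Shi-Bi-Man library 8054 barcodes and 20837259 counts. After filtering, 11019 and 7863 cells remained, with median depths of 1616 and 1780 counts per cell. They shared 49 barcodes. With 1 library per group there is no replicate, so no p value is given anywhere. Levels are CPM, a class's count of a gene scaled to a total of 1000000. Intervals are exact 95% intervals (Poisson for a level, conditional binomial for a ratio), which cover counting error only. The labels do not say that molecules were tagged, so counts may not be independent molecules. Ratios are log2 of the Shi-Bi-Man over the imiquimod library, with 0.5 added to each count. A gene was measured in a class at 20 or more counts over both libraries and called higher or lower from a 1.5-fold ratio upwards. Because free RNA enters every droplet, the level in T and NK cell-like cells, taken as cells that make no collagen, stands as the background of each gene. Col27a1 is an exception. In cluster 23 of these cells it stood at 84.7 and 148 CPM (8 and 13 counts), against 4.53 and 28.3 CPM over the class. For that chain the level is not free RNA alone. A chain was taken as above it at 2-fold or more with at least 10 counts in 1 library or both.

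Cells were clustered without any collagen gene and named by markers that hold no collagen gene. The fibroblast-like class (1580 and 1882 cells) comprised 4 clusters. Cluster 4 (524 and 986 cells) led with Cyp2f2, Serpina3n and Cpxm1 and held at most 1 marker of any subset list. Cluster 6 (196 and 462 cells), led by Meg3, Opcml and Sema3a, held 4 of 10 papillary and 4 of 10 repair-associated markers. Cluster 3 (626 and 320 cells), led by Myoc, Cygb and Prg4, held 8 of 11 lower dermal and adipose-related markers. Cluster 21 (234 and 114 cells) held 10 of 10 markers of the Pi16-type adventitial fibroblast. Cluster 12 (477 and 384 cells), led by Coch, Lrrc15 and Tnmd, held 8 of 12 fibroblast and 5 of 10 dermal sheath markers and was left unnamed. The cluster shares thus differed between the libraries. A ratio over the class as a whole joins the mix of clusters and the level within them, which are given apart below. Shares among dissociated cells may differ from those in the skin.

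**Figure D1:**
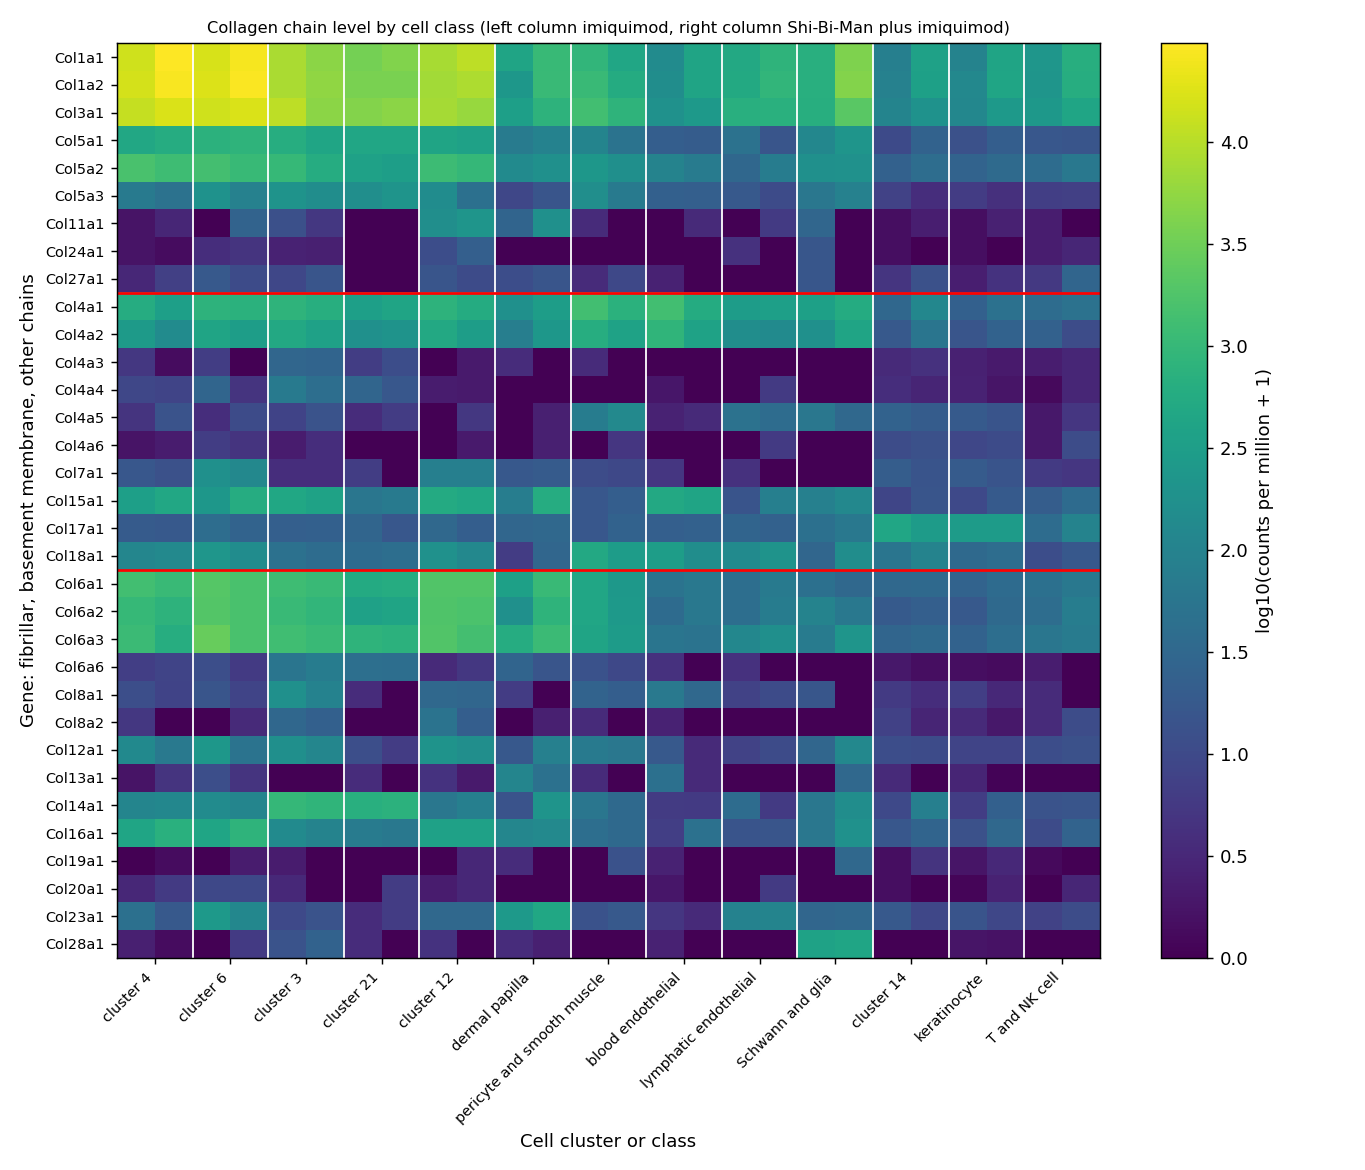
Level of collagen chains (rows, grouped by red lines into fibrillar, basement membrane and other chains) in each cluster or class (columns, imiquimod left and Shi-Bi-Man plus imiquimod right), coloured by log10(CPM + 1). Col1a1 was highest in clusters 4 and 6, Col6a1 in clusters 6 and 12, Col4a1 of the imiquimod library in pericyte and blood endothelial-like cells, Col17a1 in keratinocyte-like cells and cluster 14, and Col28a1 in Schwann-like cells.

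Collagen genes took 0.772% of all retained counts in the imiquimod library and 1.75% in the Shi-Bi-Man library. Fibroblast-like cells held 78.9% and 85.3% of all Col1a1 counts, 79.4% and 86.2% of Col1a2 and 78.9% and 84.9% of Col3a1, with cluster 12 next at 12.6% and 8.47% of Col1a1. The T and NK cell-like level of fibrillar chains itself stood at 753 CPM in the imiquimod and 1816 CPM in the Shi-Bi-Man library (log2 ratio 1.27). Of the 44 chains, 33 were measured in at least 1 class or cluster described here, and each of the 33 was above the T and NK cell-like level in at least 1. Those not measured were Col2a1, Col6a4, Col6a5, Col9a1, Col9a2, Col9a3, Col11a2, Col22a1, Col25a1 and Col26a1, with 1 to 18 counts each per library. Col10a1, a cartilage chain, had no count in either library, which at this depth allows up to 3 counts per library.

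In fibroblast-like cells both type I chains were higher in the Shi-Bi-Man library, while Col4a2, Col4a3 and Col4a4 were lower. Fibril-associated chains were split, with Col12a1 and Col14a1 lower and Col16a1 and Col20a1 higher. Col1a1, the α1 chain of type I collagen, stood at 10799.8 CPM in the imiquimod library against 24460.0 CPM in the Shi-Bi-Man library (log2 ratio 1.18, interval 1.16 to 1.20). Its partner chain Col1a2 stood at 11314 and 23253 CPM (1.04). Col3a1, the only chain of type III collagen, stood at 11231 and 14349 CPM (0.35), short of 1.5-fold. The fibrillar chains together made 3.53% and 6.38% of counts, a log2 ratio of 0.86 (0.85 to 0.87). At the cluster mix of the imiquimod library this ratio was 0.31. Basement membrane chains (1628 and 1358 CPM) and other chains (4867 and 4059 CPM) each had a ratio of -0.26.

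Of 29 measured members in this class, 5 were higher, against 9.27% of all 12346 genes measured there, and 9 were lower, against 12.1%. The higher ones were Col1a1, Col1a2, Col16a1, Col4a5 and Col20a1, the last with 10 and 20 counts. The lower ones were Col5a3, Col4a2, Col4a3, Col4a4, Col6a6, Col8a1, Col8a2, Col12a1 and Col14a1. The median log2 ratio of the 29 was -0.19, and that of all genes was -0.01. At the imiquimod cluster mix the lower members numbered 4.

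Col14a1 shows how the mix enters. This fibril-associated chain stood at 553 and 271 CPM over the class (log2 ratio -1.03), yet the ratio was -0.18 in cluster 3, 0.15 in cluster 4, -0.40 in cluster 6 and 0.18 in cluster 21. Its level was 964 and 851 CPM in cluster 3 and 108 and 120 CPM in cluster 4, the cluster with the larger share in the Shi-Bi-Man library. Col8a1, a short network chain, stood at 84.9 and 21.5 CPM over the class (-1.98), and at 176 and 95.9 CPM in cluster 3 (-0.87), where 303 of its 324 imiquimod fibroblast counts lay. Results below are therefore given cluster by cluster.

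In cluster 4 the fibrillar chains reached 44609 CPM in the imiquimod library against 77226 CPM in the Shi-Bi-Man library (log2 ratio 0.79, interval 0.78 to 0.80). Col1a1 stood at 14396 and 30647 CPM (1.09, interval 1.07 to 1.11), followed by Col1a2 at 15622 and 27903 CPM (0.84) and Col3a1 at 12432 and 16765 CPM (0.43). Type V chains, which join type I fibrils and limit their width, stayed within 1.5-fold: Col5a1 had a ratio of 0.30, Col5a2 of -0.35 and Col5a3 of -0.55. Col16a1, a chain that links fibrils to other matrix, stood at 430 and 711 CPM (0.73), and Col15a1 at 333 and 489 CPM (0.55). Of the 23 measured members 4 were higher, against 12.8% of all genes, and 6 were lower, against 12.3%.

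The lower members of cluster 4 included both common type IV chains. Col4a1 stood at 600 and 336 CPM (log2 ratio -0.84, interval -0.98 to -0.70) and Col4a2 at 277 and 146 CPM (-0.92), so the head-to-head pair had like ratios. Col6a3, the long chain of type VI, stood at 1129 and 634 CPM (-0.83), whereas Col6a1 (-0.30) and Col6a2 (-0.35) stayed within 1.5-fold. Col12a1, a fibril-associated chain of stretched tissue, stood at 133 and 64.3 CPM (-1.05), and the membrane chain Col23a1 at 45.2 and 16.6 CPM (-1.44). Col8a1 was the other, with 15 and 17 counts. Here Col4a5 was higher on 5 and 33 counts.

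In cluster 6 the type I chains were higher as well, and Col3a1 again stayed within 1.5-fold. The fibrillar total was 51182 CPM in the imiquimod library against 75060.5 CPM in the Shi-Bi-Man library (log2 ratio 0.55, interval 0.53 to 0.58). Col1a1 stood at 16634 and 26981 CPM (0.70), Col1a2 at 17473 and 28917 CPM (0.73) and Col3a1 at 14718 and 17146 CPM (0.22). Among chains with counts in both libraries Col15a1 had the largest ratio, at 240.5 and 596 CPM (1.30, interval 0.98 to 1.66), with Col16a1 at 425 and 812 CPM (0.93). Col11a1, a minor fibril chain, had 0 counts with imiquimod and 21 counts (25.6 CPM) in the Shi-Bi-Man library, at least 3.05-fold higher than the 8.39 CPM that 3 counts would give. Lower chains were Col12a1 at 235 and 49.9 CPM (-2.23, interval -2.81 to -1.68; 1 cell held 26.8% of the latter's counts), Col5a3 at 196 and 91.3 CPM (-1.10), Col23a1 at 252 and 118 CPM (-1.09), Col6a3 at 2755 and 1593 CPM (-0.79) and Col18a1 at 229 and 152 CPM (-0.60). Of 20 measured members 5 were higher, against 14.7% of all genes, and 6 lower, against 15.5%. Col17a1, below the T and NK cell-like level here, is among the 6.

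Cluster 3 went the other way. Its fibrillar total was 29199 CPM in the imiquimod library against 16931 CPM in the Shi-Bi-Man library (log2 ratio -0.79, interval -0.82 to -0.76). Col3a1 stood at 10946 and 5047 CPM (-1.12), Col1a1 at 8246 and 5168 CPM (-0.67), Col1a2 at 8173 and 5490.1 CPM (-0.57) and Col5a2 at 993 and 607 CPM (-0.71). Most other chains were within 1.5-fold, with Col6a1 at -0.22, Col6a2 at -0.32, Col6a3 at -0.26 and Col15a1 at -0.27. Col4a3 and Col4a4, which are partners in the specialised type IV network, were counted mainly here among fibroblasts. Col4a4 stood at 68.4 and 41.5 CPM (118 and 29 counts, -0.70) and Col4a3 at 29.6 and 27.2 CPM (51 and 19 counts, -0.10). Of 27 measured members 4 were higher, against 11.6% of all genes, and 6 lower, against 15.2%. The 4 higher ones, Col4a5, Col23a1, Col27a1 and Col28a1, had 9 to 23 counts per library, and 1 cell held 70.6% of the Col28a1 counts in the Shi-Bi-Man library. Of these 4, 2 were above the T and NK cell-like level.

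**Figure D2:**
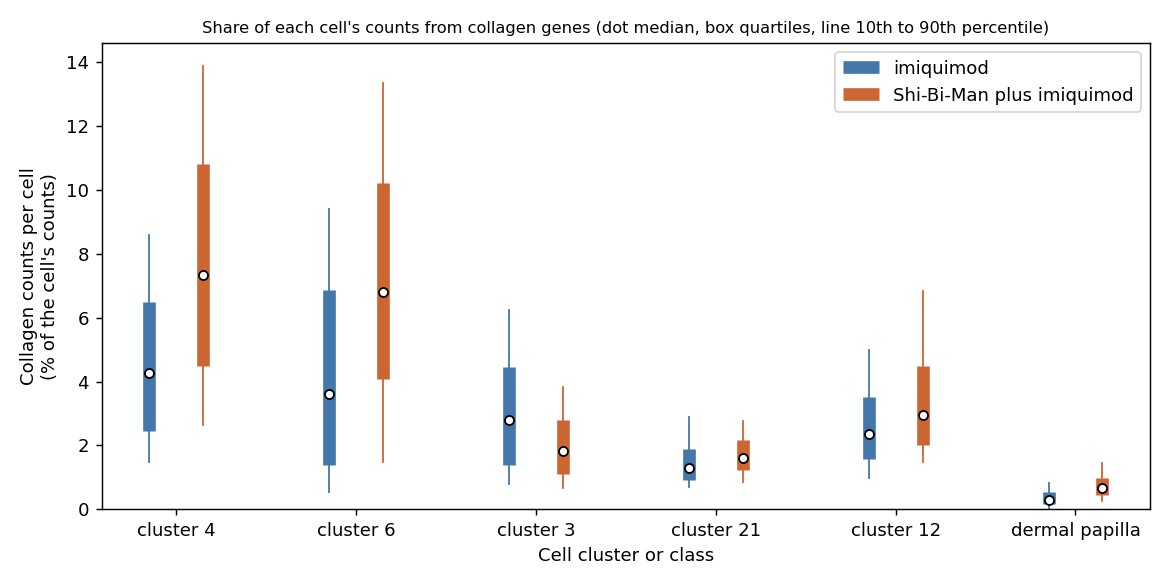
Share of each cell's counts from collagen genes (vertical axis, percent) in the fibroblast clusters, cluster 12 and dermal papilla-like cells (horizontal axis), in imiquimod (blue) and Shi-Bi-Man plus imiquimod (orange); dots are medians, boxes quartiles and lines the 10th to 90th percentile over cells. The median was higher in the Shi-Bi-Man library in clusters 4 (4.28% and 7.33%) and 6 (3.61% and 6.79%) and lower in cluster 3 (2.80% and 1.81%), with wide overlap of cells in each.

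The differences were spread over cells rather than held by a few. In cluster 4 the median cell gave 4.28% of its counts to collagen in the imiquimod library and 7.33% in the Shi-Bi-Man library, and the quartiles ran from 2.44% to 6.50% and from 4.47% to 10.8%. In cluster 6 the medians were 3.61% and 6.79%, and in cluster 3 they were 2.80% and 1.81%. The median depth of cluster 3 cells was 2406.5 counts with imiquimod and 1990.5 in the other library, and that of cluster 4 cells 2518 and 2470. Cells of different mice cannot be told apart, so these spreads are among cells, not animals.

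Cluster 21 and the unnamed cluster 12 had fewer members past 1.5-fold. In cluster 21 none of 16 measured members was higher or lower, against 13.8% and 15.4% of all genes. Col1a1 stood there at 3518 and 4313 CPM (0.29), Col3a1 at 4547 and 5167 CPM (0.18) and Col14a1 at 687 and 777 CPM (0.18). In cluster 12, 1 of 24 measured members was higher, against 19.9% of all genes, namely Col24a1 with 9 and 20 counts. Among these members 5 were lower, against 15.4%: Col5a3, Col4a2, Col8a2, Col18a1 and Col17a1. Of these 5, 4 were above the T and NK cell-like level. Col1a1 stood at 7781 and 11031 CPM (0.50) and Col3a1 at 7572 and 6271 CPM (-0.27). Col4a2 stood at 506 and 307 CPM (-0.72), Col18a1 at 187 and 123 CPM (-0.61) and Col4a1 at 782 and 564 CPM (-0.47). The ratio of Col5a3 was -1.78, but 1 cell held 34.6% of its counts in the imiquimod library, and it was -1.18 without the richest cells, as described for pericytes below. Cluster 12 held 74.6% and 52.4% of all Col11a1 counts, at 167 and 216 CPM.

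**Figure D3:**
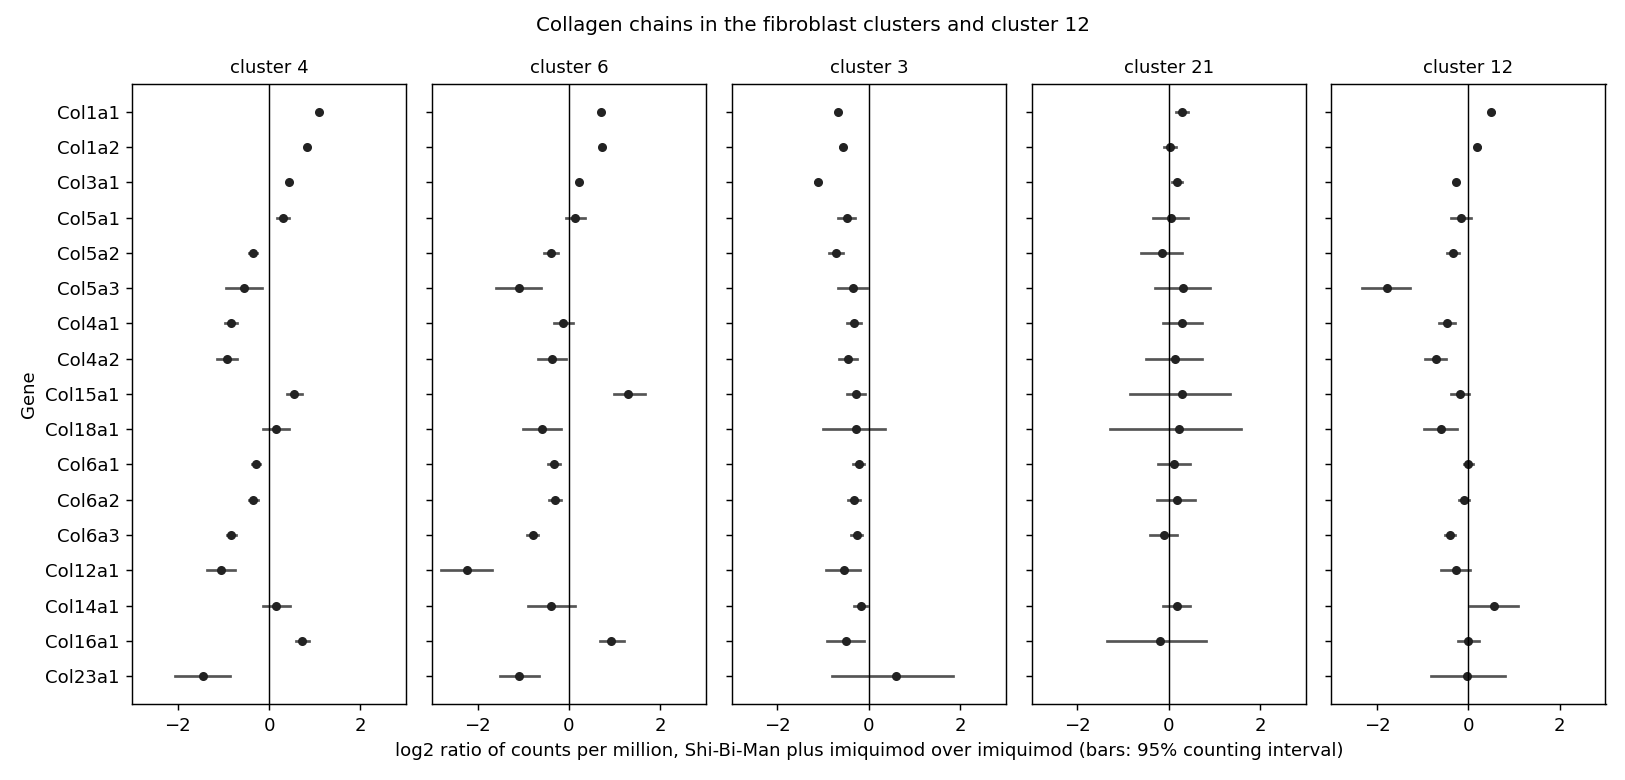
Log2 ratio of CPM, Shi-Bi-Man plus imiquimod over imiquimod (horizontal axis), for collagen chains (rows) in the 4 fibroblast clusters and cluster 12 (panels); points are ratios, bars 95% counting intervals, and genes under 20 counts are left blank. Col1a1 and Col1a2 lie right of 0 in clusters 4 and 6 and left of 0 in cluster 3, while Col12a1 lies left of 0 in clusters 3, 4, 6 and 12, with an interval that includes 0 in cluster 12.

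Several proportions between chains had one direction in the 4 fibroblast clusters and cluster 12. For every 100 Col1a1 counts, Col3a1 counts numbered 133 in the imiquimod and 97.7 in the Shi-Bi-Man library for cluster 3, 86.4 and 54.7 in cluster 4, 88.5 and 63.6 in cluster 6, 129 and 119.8 in cluster 21 and 97.3 and 56.9 in cluster 12. The type III chain was thus lower relative to the type I chain in the Shi-Bi-Man library in each of the 5. The free RNA of that library shifted alike, where T and NK cell-like cells held Col3a1 at 244 and 431 CPM and Col1a1 at 226 and 639 CPM. In pericyte and smooth muscle-like cells the proportion went the other way, from 152 to 186. In the Shi-Bi-Man library, however, Col1a1 of these cells lay below its T and NK cell-like level. Col1a2 counts per 100 of Col1a1 stayed between 77.0 and 108.5 in the 5 groups. Within type VI, Col6a3 per 100 Col6a1 counts were 102 and 99.7 in cluster 3, 84.4 and 58.2 in cluster 4, 136 and 99.2 in cluster 6, 151 and 129 in cluster 21 and 99.4 and 75.4 in cluster 12. Within type V, Col5a2 per 100 Col5a1 counts were 161 and 138 in cluster 3, 327 and 207.5 in cluster 4, 185 and 127.5 in cluster 6, 81.8 and 71.6 in cluster 21 and 290.4 and 259 in cluster 12. Within type IV, Col4a2 per 100 Col4a1 counts were 60.6 and 55.6, 46.1 and 43.4, 51.6 and 43.4, 53.7 and 47.5, and 64.8 and 54.4 in the same order of clusters. These type IV, V and VI proportions were thus lower in the Shi-Bi-Man library in each of the 5, as that of Col3a1 was, whereas Col1a2 per 100 Col1a1 was higher there in clusters 3 and 6. No interval was computed for a proportion, and some differences were small. In pericyte and smooth muscle-like cells all went the other way (type IV 44.7 and 51.4, type V 221 and 342, type VI 90.5 and 117). That of type IV was also higher in blood endothelial (62.7 and 68.2) and dermal papilla-like cells (46.3 and 75.3), but lower in lymphatic endothelial-like cells (51.1 and 40.3).

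Of 19 measured genes of collagen folding, modification and secretion in cluster 4, 8 were higher, 1 lower and 10 between (median 0.41, all genes 0.00), where 12.8% of all genes were higher and 12.3% lower. In cluster 6, 1 of 19 was higher and 0 lower, where 14.7% and 15.5% of all genes were. In cluster 3, 0 of 20 were higher or lower, where 11.6% and 15.2% of all genes were. Of 10 measured genes of propeptide processing and cross-linking in cluster 4, 2 were higher, 1 lower and 7 between. These clusters were not tested against each other. In cluster 4 P4ha2, which hydroxylates prolines, stood at 146 and 287.5 CPM (log2 ratio 0.97), Creb3l1, a transcription factor of secretory cells, at 194 and 364 CPM (0.91), and the chaperone Fkbp10 at 109 and 186 CPM (0.77). The cross-linking enzymes Lox and Loxl1 stayed within 1.5-fold, with Lox at -0.52 and Loxl1 at -0.53. Sparc, a collagen-binding protein, stood at 6273 and 10848 CPM (0.79) in cluster 4 and at 5145 and 2687 CPM (-0.94) in cluster 3, beside the fibril chains in both. Pxdn, the peroxidase that links type IV collagen, stood at 98.3 and 31.5 CPM (-1.64) in cluster 4, beside Col4a1 and Col4a2.

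Several genes of the list of collagen breakdown and uptake were lower in the same cells. The list also holds the protease inhibitors Timp1, Timp2 and Timp3, and Timp1 is among the lower genes of clusters 4 and 6. In cluster 6, 6 of 11 measured genes were lower and 0 higher (median -0.73, all genes -0.04), where 15.5% of all genes were lower and 14.7% higher. In cluster 4, 5 of 11 were lower and 0 higher (median -0.46, all genes 0.00), where 12.3% and 12.8% of all genes were. Mmp14, a membrane collagenase, stood at 6382 and 3169 CPM (-1.01) in cluster 6 and at 3904 and 2566 CPM (-0.61) in cluster 4. The protease inhibitor Timp1 stood at 300.1 and 94.6 CPM (-1.66) in cluster 4. In cluster 3 the endocytic collagen receptor Mrc2 stood at 132 and 60.1 CPM (-1.12) and Timp3 at 1479.6 and 2709 CPM (0.87), each the only one of 10 in its direction. Of the proteoglycans that coat fibrils, 6 of 10 were lower in cluster 12 (median -0.82, all genes 0.06), where 15.4% of all genes were lower, Fmod at 687 and 181 CPM (-1.92) among them. In cluster 4, 0 of 9 were higher and 1 lower. The collagen receptor Ddr2 had ratios of -0.50 in cluster 4, -0.60 in cluster 6 and 0.40 in cluster 3.

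Dermal papilla cells, the signalling fibroblasts at the base of the hair follicle, gave a larger share of their counts to collagen in the Shi-Bi-Man library. The class (271 and 458 cells) held 13 of 16 of its markers. All chains together stood at 3303.5 CPM in the imiquimod library against 8683 CPM in the Shi-Bi-Man library (log2 ratio 1.39, interval 1.31 to 1.48). Of 20 measured members 14 were higher, against 31.8% of all genes, and 2 lower, against 13.6%. Of the 20, 15 were above the T and NK cell-like level in at least 1 library, some of them, such as Col14a1, only in the library where they were high. Of these 15, 10 were higher and 2 lower. All genes were shifted upwards here too, with a median of 0.25, and scaling factors that centre the genes lowered the collagen ratio by 0.27.

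The 3 common type VI chains were all higher. Col6a1 stood at 348 and 1096 CPM (log2 ratio 1.65, interval 1.39 to 1.93), Col6a2 at 175 and 826 CPM (2.23) and Col6a3 at 592 and 1126 CPM (0.92). Basement membrane chains were higher as well, with Col15a1 at 79.7 and 589 CPM (2.86, interval 2.35 to 3.47), Col4a2 at 82.3 and 237 CPM (1.51) and Col4a1 at 178 and 314.5 CPM (0.81). Col11a1 stood at 26.6 and 175 CPM (10 and 122 counts, 2.66), Col12a1 at 15.9 and 87.6 CPM (2.36) and Col14a1 at 13.3 and 208 CPM (5 and 145 counts, 3.84). The membrane chain Col23a1, at 255 and 469.5 CPM (0.88), and Col13a1, at 109 and 46.0 CPM (-1.24), were higher here than in any other class or cluster described. They thus differed between the libraries in opposite directions. With imiquimod, however, Col23a1 of fibroblast cluster 6, given above, was nearly as high as here. Col1a1, Col1a2 and Col3a1 were not 2-fold above the T and NK cell-like level in either library, so their ratios of 1.37, 2.19 and 1.23 are not read as a difference of these cells.

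Matrix partners differed in the same cells. Plod2, the lysyl hydroxylase of cross-link sites, stood at 21.2 and 244 CPM (8 and 170 counts, 3.44), Nid1, a linker of basement membranes, at 85.0 and 533 CPM (2.63), and Sparc at 178 and 849 CPM (2.24). Aspn, a fibril-binding proteoglycan, was far lower at 1402 and 47.4 CPM (-4.87). The 12 fibroblast markers summed to 1875 and 2708 CPM in this class, with 3 of 12 higher in the Shi-Bi-Man library and none at 0. Its own 16 markers summed to 6647 and 8345 CPM, and median depth was 722 and 1141 counts. The part of these in the collagen result was not tested.

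Blood endothelial-like cells, which line vessels and rest on a type IV sheet, had less of the basement membrane chains in the Shi-Bi-Man library. The total was 3076 CPM in the imiquimod library (503 cells) against 1559 CPM in the Shi-Bi-Man library (248 cells; log2 ratio -0.98, interval -1.10 to -0.86). Col4a1 stood at 1367 and 571 CPM (-1.26, interval -1.46 to -1.06), Col4a2 at 858 and 389.7 CPM (-1.14) and Col18a1, the source of endostatin, at 309 and 155 CPM (-0.99). Col15a1 was within 1.5-fold at 514 and 416 CPM (-0.30). Col8a1 stood at 65.0 and 31.5 CPM (interval of the log2 ratio -2.02 to -0.19). The membrane chain Col13a1, on few counts, had 54 counts against 1, a ratio of -3.65 (-9.55 to -1.68).

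Of 18 measured members 4 were higher, against 13.5% of all genes, and 6 lower, against 18.6%. Of the 18, 8 were above the T and NK cell-like level in at least 1 library, 0 of them higher and 5 lower. The 4 higher members were thus all at background. The fibrillar total, 639 and 1193 CPM, was 0.848 and 0.657 times that level and so was not above it. Of 13 measured basement membrane partners 4 were lower and 2 higher, where 18.6% and 13.5% of all genes were, with Sparc at 2767 and 1542 CPM (-0.84) and the laminin chain Lama4 at 190.1 and 102 CPM (-0.89). The collagen chaperone Serpinh1 stood at 664 and 378 CPM (-0.81). The 12 pericyte markers in these cells summed to 714.5 and 455.1 CPM, with 5 of 12 higher in the Shi-Bi-Man library and 2 at 0 there. The 12 fibroblast markers summed to 777 and 588 CPM, with 5 higher and 1 at 0 there, and the cells' own 12 markers to 10776 and 12899 CPM. Median depth was 1861 and 1248 counts. Their part in the result was not tested. Endothelial cells held 26.2% of all Col4a1 counts with imiquimod and 6.15% in the Shi-Bi-Man library. Blood endothelial-like cells made 4.22% and 2.02% of all retained counts, so this share joins the mix of cells and the level within them.

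Pericyte and smooth muscle-like cells, which share that sheet, showed a like picture. Their basement membrane total was 2603 CPM in the imiquimod library (221 cells) against 1612 CPM in the Shi-Bi-Man library (189 cells; log2 ratio -0.69, interval -0.86 to -0.52). Col4a1 stood at 1367 and 739 CPM (-0.88), Col4a2 at 611 and 380.1 CPM (-0.68) and Col18a1 at 505 and 305 CPM (-0.72), whereas Col4a5 stood at 76.1 and 129.5 CPM (0.77, interval -0.01 to 1.54). Of 16 measured members 1 was higher, against 15.2% of all genes, and 11 lower, against 15.7%.

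The fibril chains of this class rested in part on 1 cell. Col1a1 stood at 883 and 451 CPM (-0.96), but 1 imiquimod cell held 29.9% of its counts, 33.0% of those of Col1a2 and 30.3% of those of Col3a1. Without the cell richest in collagen in each library, a step added after seeing the data, the ratios were -0.50 for Col1a1, -0.41 for Col1a2 and -0.25 for Col3a1. Col4a1 then had -1.04 and Col4a2 -0.73. The 12 fibroblast markers summed to 1004.5 CPM with imiquimod and 251 CPM in the Shi-Bi-Man library, 1 of 12 higher and 1 at 0 in the latter. Their part in the chain ratios was not tested.

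**Figure D4:**
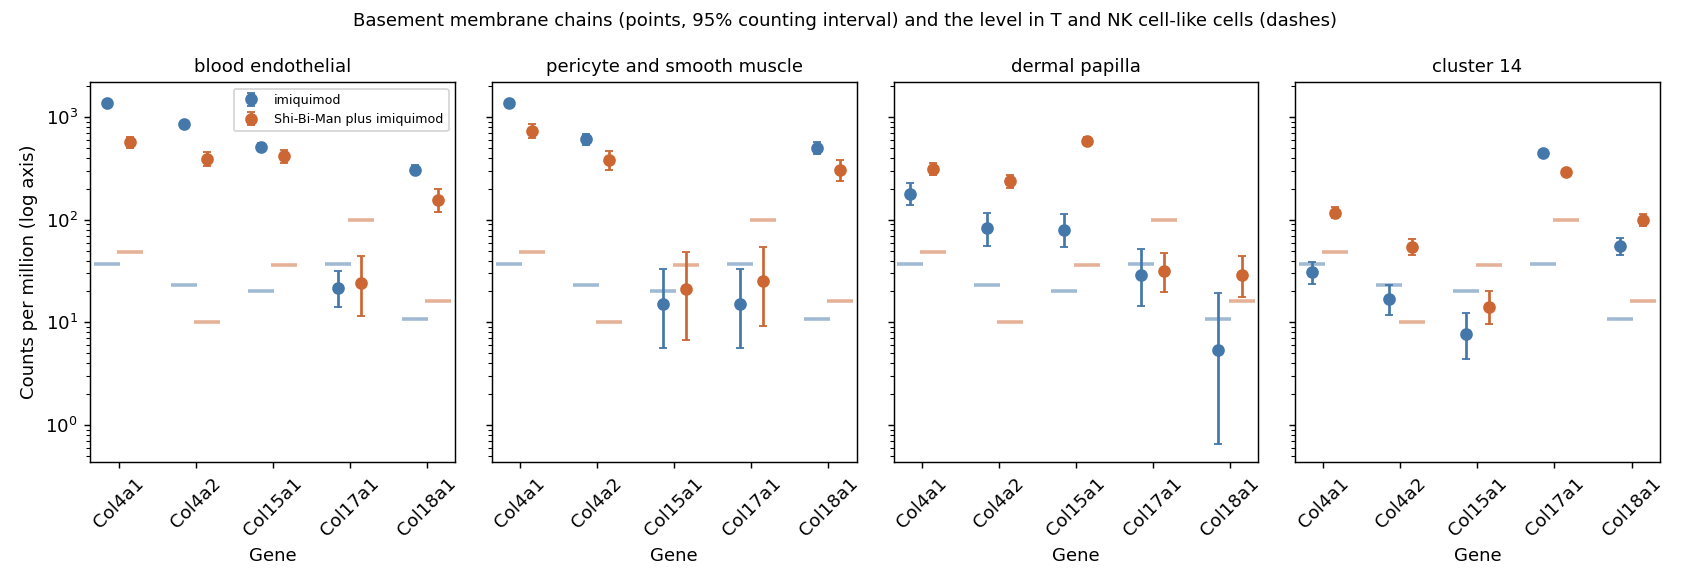
Level of 5 basement membrane chains (horizontal axis) in CPM on a log axis, in blood endothelial, pericyte and smooth muscle, dermal papilla-like cells and keratinocyte cluster 14 (panels), in imiquimod (blue) and Shi-Bi-Man plus imiquimod (orange); points carry 95% counting intervals and dashes mark the level in T and NK cell-like cells. Col4a1 and Col4a2 are lower with Shi-Bi-Man plus imiquimod in the vascular classes and higher in dermal papilla-like cells and cluster 14. In cluster 14 the imiquimod points of these chains lie below their dashes.

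Lymphatic endothelial-like cells (155 and 162 cells) had 13 measured members, 6 of them higher, against 18.4% of all genes, and 0 lower, against 13.5%. Of the 13, 10 were above the T and NK cell-like level, 3 of them higher. A single cell held 49.9% of the collagen counts of this class in the imiquimod and 41.6% in the Shi-Bi-Man library, so the fibrillar ratios are not read further. Col4a1 stood at 304 and 341 CPM (0.17), Col18a1 at 138.5 and 199 CPM (0.52) and Col23a1 at 94.6 and 104 CPM (0.15). In Schwann and glia-like cells (74 and 36 cells), Col28a1, a chain known from peripheral nerve, stood at 381 and 439 CPM (26 and 14 counts, log2 ratio 0.23, interval -0.84 to 1.20) and had no count in T and NK cell-like cells. This was its highest level of any class. Fibril chains in that class were higher in the Shi-Bi-Man library, with Col1a1 at 688 and 4236.5 CPM, but 1 cell held 58.5% of those Col1a1 counts and fibroblast markers summed to 1025 and 3672 CPM.

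Keratinocyte-like cells make the epidermal side of the basement membrane zone. Their basement membrane total was 409 CPM in the imiquimod library (1475 cells) against 455 CPM in the Shi-Bi-Man library (2416 cells; log2 ratio 0.15, interval 0.08 to 0.22). It turned negative when the T and NK cell-like level was subtracted (-0.29) and under 3 other settings. The class values compare unlike mixes of clusters. Cluster 16 had 693 and 149 cells, cluster 19 had 35 and 902, and cluster 26 had 0 and 224. At the imiquimod cluster mix the basement membrane ratio was 0.35. Col17a1, the hemidesmosome collagen, stood at 283.5 and 289.5 CPM (0.03), Col7a1 at 18.7 and 13.7 CPM (-0.45), Col4a5 at 17.6 and 13.8 CPM (-0.35) and Col4a6 at 8.08 and 9.41 CPM (0.21). Of 26 measured members 13 were higher, against 15.6% of all genes, and 4 lower, against 15% of all genes. Of the 26, 9 were above the T and NK cell-like level in at least 1 library, 2 of them higher and 2 lower (median log2 ratio 0.03). Most of the 13 higher members were thus at background. The fibrillar total, 387 and 1172 CPM, was 0.514 and 0.645 times the T and NK cell-like level, and 0 of 7 measured fibrillar chains were above it. Median depth was 3139 and 3197 counts here, against 1008 and 780.5 in T and NK cell-like cells. The background was not adjusted for depth, whose part in these values was not tested.

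Col17a1 differed in opposite directions in cluster 14 of the keratinocyte-like class and in the unnamed cluster 15. In cluster 14 (648 and 733 cells), led by the hair follicle genes Lhx2, Sostdc1 and Krt15, Col17a1 stood at 449.7 and 290.7 CPM (-0.63, interval -0.78 to -0.48). Col4a1 stood there at 30.7 and 117 CPM (1.93), Col4a2 at 16.8 and 54.7 CPM (1.69), Col18a1 at 55.1 and 99.9 CPM (0.86) and Col14a1 at 8.62 and 83.9 CPM (18 and 178 counts, 3.25). With imiquimod, Col4a1, Col4a2 and Col14a1 lay below the T and NK cell-like level (37.2, 23.3 and 12.9 CPM). They were above it only in the Shi-Bi-Man library, so the size of their ratios is not read. Pericyte markers in this cluster summed to 117 and 184 CPM and fibroblast markers to 302.2 and 408.5 CPM, and their part was not tested. Cluster 15 (629 and 234 cells), with Krt6b, Krt16 and S100a8 in the lead and left unnamed though it held 13 of 16 keratinocyte markers, had Col17a1 at 443.5 and 1051 CPM (1.25, interval 1.11 to 1.38). Its basement membrane total was 570.3 and 1263 CPM (1.15), with Col4a6 at 2.67 and 29.8 CPM (9 and 20 counts) and Col18a1 at 47.8 and 85.0 CPM (0.84). These ratios were not tested against each other.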

How the data were processed

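Raw counts per gene and cell barcode, as deposited by the authors, were used for both libraries. The builds mm10 and GRCm38 are named per the submitters' processing notes, and the aligner and counting settings are not given in the sources used here. Cells with under 200 genes (192 and 7, imiquimod and Shi-Bi-Man plus imiquimod) or over 20% mitochondrial counts (105 and 101) were left out. Scrublet called 0 of 11019 and 83 of 7946 cells as doublets. It did not work on the former library, so doublets remain there. Cells were clustered with scanpy 1.11.5 (2000 variable genes without collagen genes, 30 components, 15 neighbours, Leiden resolution 1), and clusters were named from at least 3 markers and 30% of a list. Counts were summed per class and library and scaled to a total of 1000000 (CPM). The ratio interval was tested on counts simulated with counting error only, which cannot show how it does with spread among cells or animals.

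Named with values were chains with a mean of at least 50 CPM and 50 counts in a class and a level 2-fold over T and NK cell-like cells, partner chains of a type, and 4 genes of each other list. A few chains below those limits were added after their values were seen. The members and lists were chosen with earlier results of these data known. Gene positions come from GENCODE for GRCm38. Alternatives covered filters, doublets, resolution, scaling (edgeR 4.0.16 TMM and DESeq2 1.42.0 factors, R 4.3.3), free RNA and cluster mix.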

Additional observations from a re-analysis of the deposited data

Results flagged for a closer look

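The fibrillar total differed in opposite directions in the fibroblast clusters. The log2 ratio of Shi-Bi-Man plus imiquimod over imiquimod exceeded that of cluster 3 by 1.58 in cluster 4, by 1.34 in cluster 6 and by 0.95 in cluster 21. Each cluster has 1 library per group, so these differences were not tested.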

How the results depend on the processing

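The following are log2 ratios of Shi-Bi-Man plus imiquimod over imiquimod under other settings, where they left the counting interval of the reported value. The cause was not tested. For fibrillar chains in fibroblast-like cells (0.86) the ratio was 0.78 at a 10% mitochondrial limit and at resolution 0.5, 0.84 at 500 genes per cell and without the 8% highest Scrublet scores, 0.87 with collagen genes in the clustering and with TMM or DESeq2 scaling, 0.85 without mitochondrial and ribosomal genes or with the T and NK cell-like level subtracted, 0.90 without collagen in the total, 0.96 as a mean over cells and 0.31 at the imiquimod cluster mix. In cluster 4 (0.79) it was 0.77 at the mitochondrial limit, without high Scrublet scores and at resolution 0.5, 0.85 at resolution 2, 0.73 with collagen genes, 0.78 with TMM or DESeq2 and 0.84 without collagen in the total or over cells. In cluster 6 (0.55) the same settings gave, in order, 0.65, 0.62, 0.77, 0.59, 0.63, 0.58 with TMM, 0.59 without collagen and 0.85 over cells, with 0.61 at 500 genes and 0.60 with doublets kept. At resolution 0.5 the matching cluster shared few of its cells. In cluster 3 (-0.79) it was -0.90 without high Scrublet scores, -0.52 at resolution 0.5, -0.86 at resolution 2, -0.69 over cells and -0.91 with the T and NK cell-like level subtracted.

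All collagen in dermal papilla-like cells (1.39) had 1.23 at the mitochondrial limit, 1.71 at 500 genes, 1.08 without high Scrublet scores, 1.26 and 1.11 at resolutions 0.5 and 2, 1.12 with TMM, DESeq2 or over cells and 1.51 after subtraction. Endothelial basement membrane chains (-0.98) had -1.18 without high Scrublet scores and -1.15 after subtraction. The keratinocyte basement membrane ratio (0.15) turned negative at 500 genes (-0.22), without high Scrublet scores (-0.31), at resolution 0.5 (-0.48) and after subtraction (-0.29), and was 0.02 at resolution 2, 0.01 with collagen genes, 0.04 over cells and 0.35 at the imiquimod mix. The pericyte ratio ran from -0.84 to -0.57, within its interval in 14 of 14 settings. In fibroblast-like cells the higher chains numbered 4 to 6 and the lower ones 4 to 11, with 4 at the imiquimod mix. No paired analysis was possible because each group has 1 library.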
